A study of Homo sapiens with 9 samples.

Results

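NRF2 target genes protect cells from oxidants and reactive chemicals. Of these, 10 were followed in MDA-MB-231 cells, a human triple-negative, claudin-low breast cancer line, and in sub-populations of it selected for metastasis: HMOX1, NQO1, SLC7A11, GCLC, GCLM, TXNRD1, SRXN1, AKR1C1, AKR1C2 and AKR1C3. They were taken by gene symbol from the 58884 genes of the count table. All 10 have a row, and 9 of them were among the 13018 genes abundant enough to be tested; SRXN1 was not. RNA-seq had been made from the parental line (Par), the lung metastatic line (LM2) and the brain metastatic line (BrM2), with 3 biological replicates from different passages for each line and 9 libraries in all. The cells were grown as monolayers in culture and received no treatment, and the labels give no engineered change of any gene in any line. LM2 and BrM2 cells were each obtained by selection in mice from the same parental line, so each metastatic site is represented by 1 population in culture.

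NRF2, encoded by NFE2L2, is a transcription factor that KEAP1 holds in the cytoplasm and hands to a CUL3 and RBX1 ubiquitin ligase for degradation. Oxidants and electrophiles modify KEAP1, and NRF2 then accumulates, pairs with a small MAF protein and binds antioxidant response elements near its target genes, where BACH1 competes for the same sites. The targets form a set of linked defences: heme breakdown, quinone reduction, cystine uptake and glutathione synthesis, the thioredoxin system, and the reduction of aldehydes, ketones and steroids by aldo-keto reductases.

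Against Par cells, AKR1C2 and AKR1C3 fell in both metastatic lines and AKR1C1 fell in BrM2 cells, and none of the other 6 tested targets was called without a block. With the replicate number as a block, SLC7A11 was also higher in both metastatic lines, and NQO1 was higher and TXNRD1 lower in LM2 cells, and these 4 calls held on replicates 2 and 3 alone. AKR1C3 fell 2.24-fold in LM2 cells and 5.79-fold in BrM2 cells, and AKR1C2 fell 4.77-fold and 5-fold. NQO1 was 3.07-fold lower in BrM2 than in LM2 cells, with its highest level in LM2 cells. The subunits of the glutathione-synthesizing ligase, GCLC and GCLM, passed the test in none of the 3 comparisons. Levels are counts per 1000000 (CPM) after TMM normalization, differences are log2 fold changes with their standard errors (SE), and a gene was called at an adjusted p under 0.05 in the quasi-likelihood test of edgeR, adjusted after Benjamini and Hochberg over all 13018 genes.

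The libraries held between 14371858 and 24511786 counts, so 3 counts correspond to between 0.115 and 0.221 CPM. Replicate 1 stood apart from replicates 2 and 3 in every line: 9452 genes (72.6%) differed between them. The difference, replicate 1 over the others, was larger for genes whose longest transcript has a higher GC content (Spearman's rho 0.80 across 12952 genes, which are not independent replicates). Values are therefore also given from a fit with the replicate number as a block, which compares libraries of the same number. The 6 mesenchymal markers summed to 3259 to 4095 CPM in Par, 4326 to 5690 in LM2 and 3590 to 4865 in BrM2 libraries, with none near the floor. The 8 epithelial markers summed to 1151 to 2222 CPM in Par, 622 to 1674 in LM2 and 767 to 1706 in BrM2 libraries, and 1 was at or under 3 counts in all LM2 libraries. In LM2 against Par cells, where 8.67% of all genes were called, 2 of the 6 tested epithelial markers were called lower. There 1 mesenchymal marker and 1 of the glial and neuronal markers were called higher. In BrM2 against Par cells, where 13.2% of all genes were called, 1 epithelial marker was lower, and 1 mesenchymal marker higher and 1 lower. Their part in the results was not tested. The hematopoietic markers summed to at most 0.63 CPM and the alveolar markers to at most 0.158 CPM. Endothelial markers summed to 6.72 to 13.1 CPM, and glial and neuronal markers to 5.92 to 24.6 CPM, with 3 of the 5 at or under 3 counts in every line. Without the block the p-values measure the spread between passages of 1 culture line each. With it they measure the spread left once same-numbered libraries are treated as pairs. With 3 libraries a line an exact permutation test of a single gene could not go below p = 0.10.

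In the comparison of LM2 with Par cells, 2 of the 9 tested targets were called, beside 8.67% of all genes tested, and both were lower. In the comparison of BrM2 with Par cells, 3 of 9 were called, all lower, beside 13.2% of all genes. Between BrM2 and LM2 cells, 2 of 9 were called, both lower in BrM2 cells, beside 8.1% of all genes. With the replicate block these counts were 6 of 9 beside 34.5% of all genes, 4 of 9 beside 42.7%, and 4 of 9 beside 37.5%. The 3 libraries of one line lay entirely above or below those of the other for 4 targets in LM2 against Par cells (25.1% of all genes did so), 4 in BrM2 against Par cells (31.3%) and 3 in BrM2 against LM2 cells (23.2%). The median log2 fold change of the 9 targets was -0.13, -0.38 and -0.28 in these 3 comparisons, beside medians of 0.014, -0.02 and -0.029 over all genes. The comparisons share their libraries, so they are not independent of each other.

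**Figure D1:**
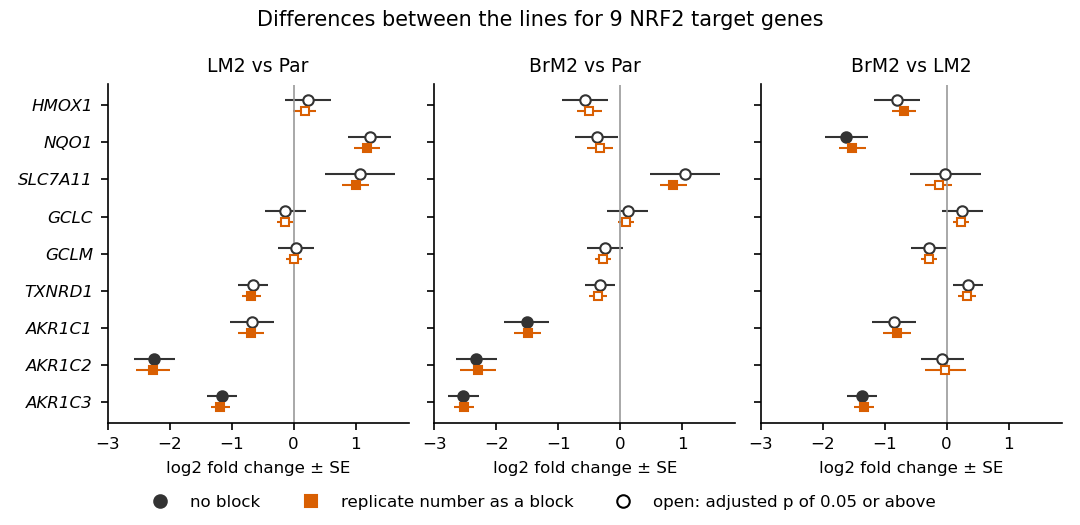
Log2 fold change (x axis) with its SE for 9 NRF2 targets (rows) in the 3 comparisons of lines, without a block (circles) and with the replicate number as a block (squares); filled symbols have an adjusted p under 0.05. The AKR1C genes lie to the left of 0 against Par cells, from -0.67 to -2.53 without a block, while SLC7A11 lies near 1 in both metastatic lines with an SE of 0.57 that falls to 0.22 with the block.

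HMOX1 encodes heme oxygenase, which opens the heme ring and releases iron, carbon monoxide and biliverdin. It lies at chr22:35381096-35394207 on the plus strand (GRCh38.p14 RefSeq, as for all positions). Its level was 18, 11 and 10.4 CPM in Par replicates 1, 2 and 3. It was 24.8, 11.3 and 10.3 CPM in LM2 cells, and 9.88, 7.86 and 8.96 CPM in BrM2 cells. All BrM2 libraries were below all libraries of the other lines, and the high values were replicate 1 of Par and of LM2 cells. HMOX1 was not called in LM2 against Par cells (log2 fold change 0.24, SE 0.37, adjusted p = 0.83) or in BrM2 against Par cells (-0.56, SE 0.37, adjusted p = 0.43). Between BrM2 and LM2 cells the log2 difference was -0.80 (SE 0.37, adjusted p = 0.27), and with the block it was -0.69 (SE 0.20, adjusted p = 0.02). That call was lost when replicate 1 was left out of the blocked fit, where the difference was -0.35 (adjusted p = 0.19). HMOX1 was higher in replicate 1 than in replicates 2 and 3 by 0.76 on the log2 scale. Its longest transcript has a GC content of 58.5% beside a median of 47.6% over all genes. The part of this shift in the result was not tested.

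NQO1 encodes the quinone reductase that turns quinones into hydroquinones and is among the most used readouts of NRF2 activity. It lies at chr16:69709401-69726560 on the minus strand. Its level was 379, 283 and 204 CPM in the Par libraries. The LM2 libraries held 1055, 428 and 554 CPM, and the BrM2 libraries 228, 229 and 207 CPM. Every LM2 library was above every Par and BrM2 library, while the Par and BrM2 libraries overlapped. NQO1 was lower in BrM2 than in LM2 cells by a log2 difference of -1.62 (SE 0.35, adjusted p = 0.024), and same-numbered libraries differed by -2.21, -0.90 and -1.42. The call was lost without any 1 of BrM2 replicates 1, 2 and 3, with adjusted p up to 0.11 over the 9 fits that each left out a library. The rise in LM2 over Par cells missed the threshold (1.23, SE 0.35, adjusted p = 0.066) and passed it with the block (1.19, SE 0.21, adjusted p = 0.0015). All 3 same-numbered pairs were higher in LM2 than in Par cells, by 1.48, 0.59 and 1.44 on the log2 scale. In BrM2 against Par cells the log2 difference was -0.38 (SE 0.34, adjusted p = 0.58). NQO1 shares 19.4% of its exon length with an unnamed gene on the opposite strand, which had 0 counts in every library.

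SLC7A11, GCLC and GCLM feed glutathione synthesis: SLC7A11 is the cystine-importing subunit of the cystine and glutamate exchanger, GCLC is the catalytic subunit of glutamate-cysteine ligase, and GCLM is its modifier subunit. SLC7A11 lies at chr4:138164097-138242349 on the minus strand. Its level was 36.1, 69.1 and 65.6 CPM in the Par libraries, 57.7, 139 and 162 CPM in the LM2 libraries, and 40.2, 198 and 115 CPM in the BrM2 libraries. Replicate 1 was the lowest library of each line, and each line's range overlapped those of the others. Without the block SLC7A11 was not called in LM2 (1.07, SE 0.57, adjusted p = 0.36) or BrM2 cells (1.05, SE 0.57, adjusted p = 0.32) against Par cells. With the block it was called higher in both, by 1.0 (SE 0.22, adjusted p = 0.0059) in LM2 cells and by 0.86 (SE 0.22, adjusted p = 0.01) in BrM2 cells. The pairs of the same number were higher than Par in 3 of 3 cases in LM2 cells (0.68, 1.01 and 1.31) and in BrM2 cells (0.15, 1.52 and 0.81). The log2 difference between BrM2 and LM2 cells was -0.022 (SE 0.57, adjusted p = 0.99). SLC7A11 was lower in replicate 1 by 1.39 on the log2 scale, the widest such shift among the 9 targets, and its longest transcript has a GC content of 35.4%. An antisense gene, SLC7A11-AS1, overlaps 8.97% of its exon length and had 4 to 53 counts per library, beside 545 to 4478 for SLC7A11.

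GCLC (chr6:53497341-53545101, minus strand) was at 21.4, 33.1 and 32.2 CPM in Par cells, 18.6, 28.5 and 32.3 CPM in LM2 cells, and 19.5, 36.6 and 38.2 CPM in BrM2 cells. GCLM (chr1:93885199-93909430, minus strand) was at 65.2, 78.5 and 87.4 CPM in Par cells, 56.5, 83.3 and 98.1 CPM in LM2 cells, and 42.2, 75.5 and 78.2 CPM in BrM2 cells. For both genes the lines overlapped, and replicate 1 was the lowest library of each. Neither was called in any comparison, with or without the block. Without it their log2 differences lay between -0.28 and 0.25, with an SE of 0.33 for GCLC and 0.29 for GCLM and adjusted p from 0.68 to 0.97. With the block the SE was 0.13 and the widest difference was -0.29, for GCLM between BrM2 and LM2 cells (adjusted p = 0.1).

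TXNRD1 and SRXN1 belong to the thioredoxin system. TXNRD1 encodes cytosolic thioredoxin reductase, which keeps thioredoxin reduced at the expense of NADPH, and SRXN1 encodes sulfiredoxin, which repairs overoxidized peroxiredoxins. TXNRD1 (chr12:104215779-104350307, plus strand) was at 717, 755 and 787 CPM in Par cells. It was at 391, 460 and 575 CPM in LM2 cells, and at 420, 729 and 655 CPM in BrM2 cells. Every LM2 library was below every Par library, while the BrM2 libraries overlapped both. The log2 difference between LM2 and Par cells was -0.66 (SE 0.24, adjusted p = 0.14), and with the block -0.68 (SE 0.15, adjusted p = 0.0047). It was -0.32 (SE 0.24, adjusted p = 0.48) in BrM2 against Par cells and 0.34 (SE 0.24, adjusted p = 0.49) in BrM2 against LM2 cells. In the blocked fit of replicates 2 and 3 alone, TXNRD1 was also called higher in BrM2 than in LM2 cells, by 0.44 (adjusted p = 0.045).

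SRXN1 (chr20:646615-653200, minus strand) had 0 or 1 counts in each of the 9 libraries, under the limit of 3 counts that a count of 0 allows. Of its exon length, 90.7% overlaps an unnamed gene on the same strand, which itself had 0 to 4 counts per library. A read that could belong to either gene is assigned to neither by STAR's gene counting, so the level of SRXN1 could not be read from these counts.

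**Figure D2:**
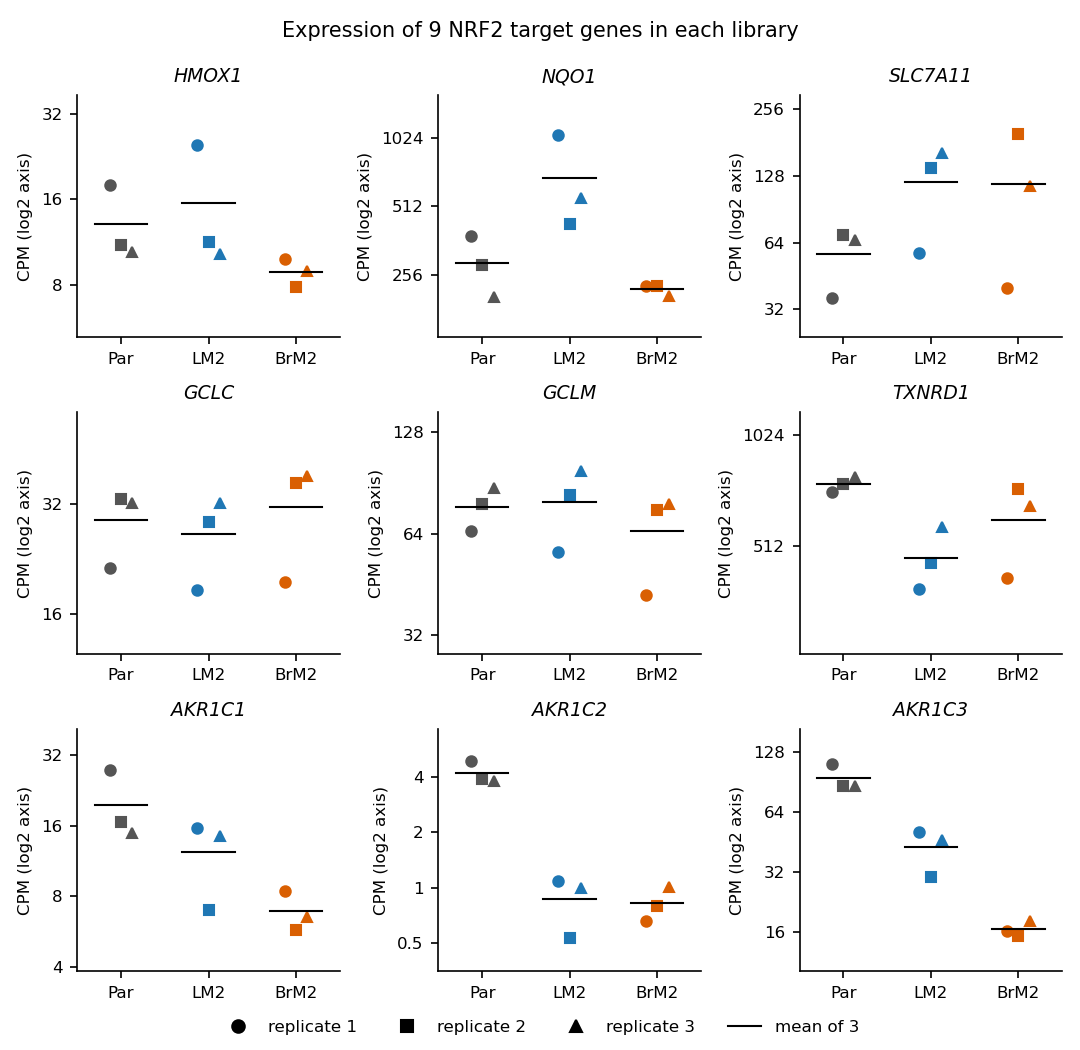
CPM of 9 NRF2 targets (panels, each with its own log2 y axis) in the 3 replicates of Par, LM2 and BrM2 cells; circles, squares and triangles are replicates 1, 2 and 3, and the lines are means of 3. The BrM2 libraries of AKR1C3 lie at 15.2 to 18 CPM, below all LM2 and Par libraries, while replicate 1 is the lowest library of every line for SLC7A11, GCLC and GCLM.

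The antioxidant response element core, TGACNNNGC on either strand, was searched in the promoters of RefSeq (GRCh38.p14), from 250 bases before to 50 bases after the gene start. Promoters were found for 8 of the 10 targets, all but HMOX1 and SLC7A11, and 2 of the 8 held the core, beside 13.3% of 35116 promoters. The matches are shown with 20 bases on either side, 5′ to 3′ on the gene's strand, because the 2 targets that hold a match were not called in any unblocked comparison; capitals mark the core. In GCLM it starts 34 bases before the gene start (window chr1:93909436-93909484, minus strand), and in TXNRD1 99 bases before it (window chr12:104215660-104215708, plus strand). TXNRD1 holds a further match 8 bases before its start. Its promoter used here is the first of 2 listed, and the other, with a start 71253 bases inside the gene interval, also holds a match.
GCLM: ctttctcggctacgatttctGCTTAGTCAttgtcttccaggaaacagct
TXNRD1: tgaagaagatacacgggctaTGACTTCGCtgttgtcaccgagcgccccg
A match is a string of letters and not a bound site, and the window leaves out distal elements.

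AKR1C1, AKR1C2 and AKR1C3 encode aldo-keto reductases that reduce aldehydes, ketones and steroids with NADPH. AKR1C1 inactivates progesterone, AKR1C2 inactivates dihydrotestosterone, and AKR1C3 makes testosterone from androstenedione and reduces prostaglandins. The genes are neighbours on chromosome 10, at chr10:4963415-4983283 (AKR1C1, plus strand), chr10:4987775-5018000 (AKR1C2, minus strand) and chr10:5048781-5107686 (AKR1C3, plus strand). Their promoters are shown because all 3 genes were called lower in BrM2 than in Par cells. The RefSeq promoter of AKR1C2 belongs to a start at chr10:5003857, inside the interval given above, which runs to a further start upstream, and that of AKR1C3 is the first of 2 listed. In AKR1C2 and AKR1C3, capitals mark bases that differ from AKR1C1 in the alignment. The windows run from 100 to 1 bases before the start of AKR1C1 (chr10:4963315-4963414), from 104 to 9 before this inner start of AKR1C2 (chr10:5003866-5003961) and from 96 to 1 before that of AKR1C3 (chr10:5048685-5048780).
AKR1C1: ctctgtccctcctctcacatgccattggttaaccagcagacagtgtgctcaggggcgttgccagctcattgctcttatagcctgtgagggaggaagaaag
AKR1C2: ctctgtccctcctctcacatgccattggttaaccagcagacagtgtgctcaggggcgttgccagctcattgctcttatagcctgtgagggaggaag
AKR1C3: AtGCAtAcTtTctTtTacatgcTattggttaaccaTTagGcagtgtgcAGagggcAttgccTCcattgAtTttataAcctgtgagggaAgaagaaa
With gaps not counted, the AKR1C2 window of 96 bases holds 0 bases that differ from the AKR1C1 window of 100, and the AKR1C3 window of 96 holds 22. Over the whole 300-base promoters, 98.6% of the aligned positions were identical between AKR1C1 and AKR1C2, 78% between AKR1C1 and AKR1C3, and 77.7% between AKR1C2 and AKR1C3. Gap positions inside the alignments, which these shares leave out, numbered 4, 9 and 13 in the same order.

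AKR1C3 was at 112, 86.3 and 87.1 CPM in Par cells, 51, 30.3 and 46.3 CPM in LM2 cells, and 16.1, 15.2 and 18 CPM in BrM2 cells. The 3 lines did not overlap, in the order Par, LM2 and BrM2. It fell in LM2 against Par cells by a log2 difference of -1.16 (SE 0.24, adjusted p = 0.016) and in BrM2 against Par cells by one of -2.53 (SE 0.25, adjusted p = 0.00029). The difference between BrM2 and LM2 cells was itself called (-1.37, SE 0.24, adjusted p = 0.0081). Both BrM2 calls held in all 9 fits that left out a library, with adjusted p up to 0.0033 against Par cells and up to 0.047 against LM2 cells. The LM2 call against Par cells held in 6 of 9 and was lost without Par replicate 1, LM2 replicate 2 or LM2 replicate 3 (adjusted p up to 0.062).

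AKR1C2 was at 4.83, 3.87 and 3.81 CPM in Par cells, 1.09, 0.531 and 0.997 CPM in LM2 cells, and 0.664, 0.795 and 1.01 CPM in BrM2 cells. The Par libraries held 80 to 97 counts of it, and the LM2 and BrM2 libraries 9 to 26, so its level there rests on few reads. All Par libraries were above all others, and the LM2 and BrM2 libraries overlapped. AKR1C2 fell by a log2 difference of -2.25 (SE 0.33, adjusted p = 0.0031) in LM2 cells and of -2.32 (SE 0.33, adjusted p = 0.0021) in BrM2 cells, and both calls held in 9 of 9 fits that left out a library. The difference between BrM2 and LM2 cells was -0.068 (SE 0.34, adjusted p = 0.95).

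AKR1C1 was at 27.6, 16.7 and 14.9 CPM in Par cells, 15.7, 7.02 and 14.5 CPM in LM2 cells, and 8.41, 5.78 and 6.57 CPM in BrM2 cells. All BrM2 libraries were below all Par libraries, while the LM2 libraries overlapped both. It fell in BrM2 against Par cells by a log2 difference of -1.51 (SE 0.37, adjusted p = 0.027), a call lost without Par replicate 1, Par replicate 2, BrM2 replicate 2 or BrM2 replicate 3 (adjusted p up to 0.12). In LM2 against Par cells the difference was -0.67 (SE 0.36, adjusted p = 0.36) and with the block -0.68 (SE 0.21, adjusted p = 0.027). In BrM2 against LM2 cells it was -0.85 (SE 0.36, adjusted p = 0.23) and with the block -0.80 (SE 0.22, adjusted p = 0.015). Both of these blocked calls were lost without replicate 1, at adjusted p = 0.16 and 0.11.

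Part of the reads of AKR1C1 and AKR1C2 may be impossible to tell apart. Of the 50-base stretches of AKR1C1 transcripts 24.6% also occur in AKR1C2, and 35.2% of those of AKR1C2 occur in AKR1C1. These are shares of single stretches, while the libraries were read from both ends, so they do not give the share of reads affected. Reads of shared stretches may be missing from both counts, and adding up the counts would not restore them. With the counts of both added up, the log2 difference was -1.63 (SE 0.35, adjusted p = 0.016) in BrM2 against Par cells. The sum was not called in LM2 against Par cells (-0.85, SE 0.34, adjusted p = 0.2), where it was with the block (-0.87, SE 0.20, adjusted p = 0.0076). AKR1C1 made up most of the sum, with 345 to 525 counts per Par library beside 80 to 97 of AKR1C2. In LM2 libraries it had 172 to 379 counts beside 13 to 26. The sum therefore says little about AKR1C2 on its own.

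Genes around the AKR1C cluster were compared with it. Within 1000000 bases on either side RefSeq lists 60 genes, of which 12 were tested. Against Par cells, 1 of the 12 was called lower in LM2 cells and 0 were called in BrM2 cells (with the block 3 were lower in LM2 cells, and in BrM2 cells 1 was lower and 3 higher). Over all genes 8.67% and 13.2% were called without the block, and 34.5% and 42.7% with it. The gene called was MANCR, a long noncoding RNA, with a log2 difference of -2.21 (adjusted p = 0.0028) in LM2 cells. In LM2 against Par cells 10 of the 12 neighbours had log2 differences below 0. Only MANCR and LINC00705 (-1.75, adjusted p = 0.34), which lies within the interval of MANCR, were below -0.72. The other neighbours lay between -0.72 and 0.19. AKR1C1 at -0.67 was inside that range, and AKR1C3 at -1.16 and AKR1C2 at -2.25 were below it. In BrM2 against Par cells the neighbours lay between -0.58 and 0.71, beside -1.51 to -2.53 for the AKR1C genes. MANCR was higher in BrM2 than in LM2 cells by 2.91 (adjusted p = 0.00078), in the opposite direction to AKR1C3. MANCR and LINC00705 were named after their values were seen.

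**Figure D3:**
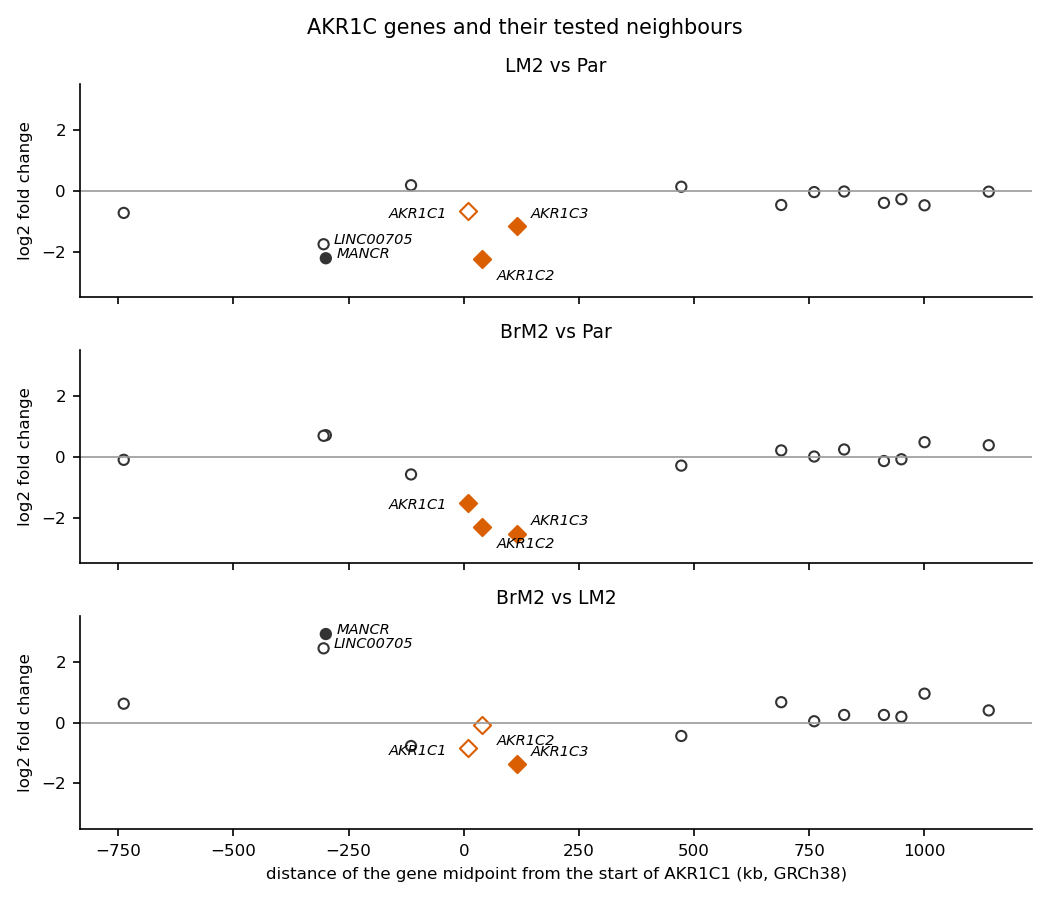
Log2 fold change (y axis) of AKR1C1, AKR1C2 and AKR1C3 (diamonds) and of the 12 tested genes within 1000000 bases (circles) against the distance of the gene's midpoint from the start of AKR1C1 in kb (x axis), in the 3 comparisons; filled symbols have an adjusted p under 0.05 without a block. In LM2 against Par cells MANCR (-2.21) and LINC00705 (-1.75) lie apart from the other neighbours, which range from -0.72 to 0.19. In BrM2 against Par cells the neighbours lie between -0.58 and 0.71, above the AKR1C genes.

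Among genes, levels were compared per kb of merged exon length, which includes the exons of all annotated isoforms. In Par cells TXNRD1 was highest at 112 ± 5.2 CPM per kb (SD, n = 3), followed by NQO1 at 97.2 ± 29.4, and these 2 overlapped. AKR1C3 at 24.4 ± 3.8 and GCLM at 14.2 ± 2.06 CPM per kb came next and overlapped with neither neighbour in the order. SLC7A11 at 5.9 ± 1.88 and HMOX1 at 5.7 ± 1.82 overlapped, as did GCLC at 3.35 ± 0.753 and AKR1C1 at 2.25 ± 0.782. AKR1C2 was lowest at 0.686 ± 0.094 CPM per kb, a level that may leave out reads of stretches shared with AKR1C1. In LM2 cells NQO1 was first at 229 ± 112 CPM per kb, above TXNRD1 at 70.9 ± 13.9 without overlap. In BrM2 cells AKR1C3 was at 4.2 ± 0.366 CPM per kb, overlapping HMOX1 at 3.86 ± 0.439, and AKR1C2 was lowest again at 0.135 ± 0.0284.

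The regulators of the pathway were all abundant enough to be tested. Without the block 0 of 13 were called against Par cells in LM2 or BrM2 cells (8.67% and 13.2% of all genes were). Between BrM2 and LM2 cells (8.1% of all genes) 1 of 13 was called. This was NFE2L3, an NRF2-related factor, which was higher in BrM2 (198 ± 38.8 CPM, SD, n = 3) than in LM2 cells (97.3 ± 15.5 CPM), by a log2 difference of 1.02 (SE 0.21, adjusted p = 0.018), a call lost without LM2 replicate 3, BrM2 replicate 2 or BrM2 replicate 3. With the block, 3, 5 and 6 of the 13 regulators were called in the 3 comparisons, beside 34.5%, 42.7% and 37.5% of all genes. NFE2L2 itself was at 81.7, 124 and 143 CPM in Par cells, 37, 96.9 and 111 CPM in LM2 cells, and 35.5, 105 and 88.4 CPM in BrM2 cells. Every same-numbered library was lower than Par in both metastatic lines, and replicate 1 was the lowest of each line. Its log2 difference against Par cells was -0.51 (SE 0.49, adjusted p = 0.67) in LM2 cells and -0.60 (SE 0.49, adjusted p = 0.53) in BrM2 cells. With the block both were called lower (adjusted p = 0.018 and 0.008). The log2 difference of NFE2L2 between replicate 1 and replicates 2 and 3 was -1.20. Blocked calls of NFE2L2 and the other regulators are not given for replicates 2 and 3 alone. All these are mRNA levels, while NRF2 is controlled largely through the stability of its protein, which was not measured.

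KEAP1, the repressor, was at 127 ± 33.3 CPM in Par, 112 ± 39.9 in LM2 and 168 ± 62.5 in BrM2 cells, with adjusted p = 0.41 between BrM2 and LM2 cells and 0.013 with the block. The ligase subunits CUL3 and RBX1 were called in no comparison with or without the block, and neither were BACH2, MAFG and TXNIP, the thioredoxin inhibitor. BACH1, the competing repressor, was at 24.6 ± 12.4 CPM in BrM2 and 34.9 ± 16.7 CPM in LM2 cells, called lower in BrM2 cells with the block alone (adjusted p = 0.018). MAFK, a small MAF partner, was at 17.7 ± 10.9 CPM in Par and 5.16 ± 1.86 CPM in LM2 cells, a log2 difference of -1.78 (SE 0.60, adjusted p = 0.12, and 0.011 with the block). MAFF, another small MAF partner, was at 37.9 ± 14.2 CPM in Par and 67.7 ± 16.7 CPM in BrM2 cells (adjusted p = 0.26, and 0.001 with the block). NFE2L1 was at 330 ± 37 CPM in Par and 460 ± 40 CPM in BrM2 cells (adjusted p = 0.13, and 0.0048 with the block). SQSTM1, which binds KEAP1, was at 192 ± 34.7 CPM in Par and 280 ± 93.8 CPM in BrM2 cells (adjusted p = 0.45, and 0.036 with the block).

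Of 11 other glutathione and thioredoxin targets of NRF2, 10 were tested. ABCC3, which exports organic anions and conjugates, was at 113, 137 and 123 CPM in Par cells, 35.8, 32 and 34.3 CPM in LM2 cells, and 10.2, 7.24 and 8.96 CPM in BrM2 cells. The 3 lines of ABCC3 did not overlap and had the same order as those of AKR1C3. Its log2 difference was -1.87 (SE 0.19, adjusted p = 0.00055) in LM2 against Par cells, -3.82 (SE 0.21, adjusted p = 2.9e-05) in BrM2 against Par cells and -1.95 (SE 0.19, adjusted p = 0.0005) in BrM2 against LM2 cells, and all 3 calls held in 9 of 9 fits that left out a library. In all, 2 of the 10 were called lower in LM2 cells (8.67% of all genes were called) and 2 lower in BrM2 cells (13.2%). In BrM2 against LM2 cells (8.1%) 1 was higher and 3 were lower. The others were GSR, glutathione reductase (LM2 against Par -0.96, adjusted p = 0.02; BrM2 against LM2 0.81, adjusted p = 0.043), GSTM3, a glutathione transferase (BrM2 against Par -1.62, adjusted p = 0.0028), and TXN, thioredoxin (BrM2 against LM2 -0.70, adjusted p = 0.037). GSTM3 was also lower in BrM2 than in LM2 cells (-1.04, adjusted p = 0.032). Without 1 library, the GSR call against Par cells held in 3 of 9 fits and that between BrM2 and LM2 cells in 1, that of TXN in 2, and that of GSTM3 in 9 against Par cells and in 2 against LM2 cells.

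Of 4 iron and heme targets, BLVRA, biliverdin reductase, which acts after heme oxygenase, was lower in LM2 than in Par cells (22.4 ± 2.02 against 50.7 ± 6.22 CPM, log2 difference -1.18, adjusted p = 0.0049). It was higher in BrM2 than in LM2 cells by 0.73 (adjusted p = 0.045), a call that held in 1 of 9 fits without 1 library. FTH1, the ferritin heavy chain, had 105 to 390 counts per library. Of its exon length, 63.2% overlaps BEST1 on the opposite strand and 20.1% of its 50-base stretches occur in other genes, so its low level is uncertain. Of 11 detoxification targets, 8 were tested. EPHX1, the microsomal epoxide hydrolase, was lower in BrM2 cells (21.5 ± 6.58 CPM) than in Par cells (90.9 ± 23.3 CPM) by a log2 difference of -2.08 (adjusted p = 0.0085), and than in LM2 cells by a log2 difference of -1.53 (adjusted p = 0.045, held in 1 of 9 fits without 1 library). PIR, pirin, was lower in BrM2 than in Par cells by a log2 difference of -0.99 (adjusted p = 0.039, held in 3 of 9).

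**Figure D4:**
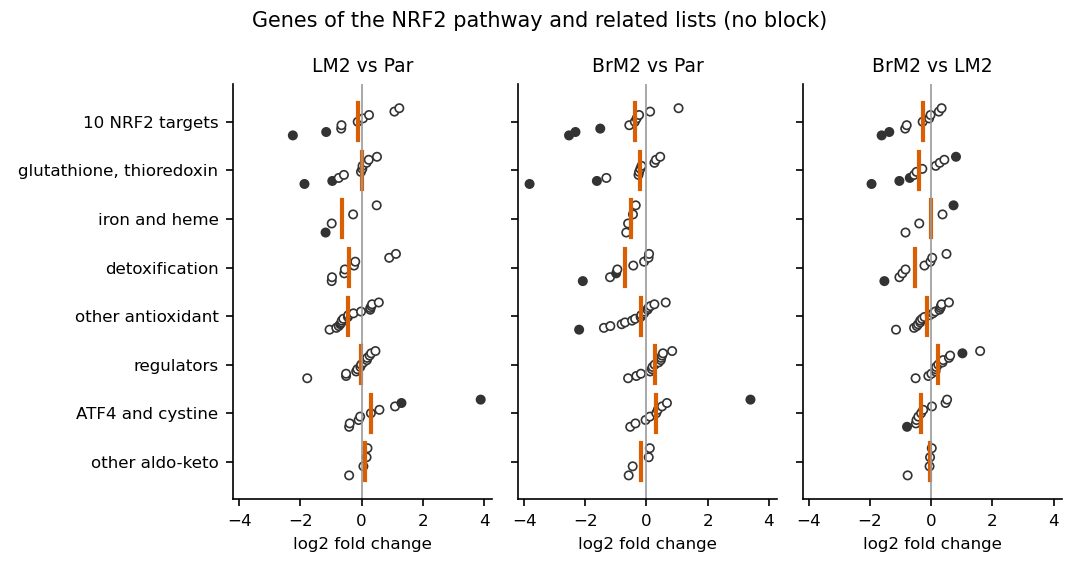
Log2 fold change without a block (x axis) of each tested gene in the 10 NRF2 targets and 7 related lists (rows) for the 3 comparisons; filled circles have an adjusted p under 0.05 and the thick bars are list medians. In BrM2 against Par cells the called genes lie left of 0, with ABCC3 furthest at -3.82, except PHGDH at 3.40.

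Among 16 antioxidant enzymes not chosen as NRF2 targets, 1 was called in LM2 cells (8.67% of all genes) and 1 in BrM2 cells (13.2%) against Par cells. These were SOD1, the cytosolic superoxide dismutase (LM2 against Par -0.70, adjusted p = 0.032, held in 2 of 9 fits without 1 library), and GPX7, a peroxidase of the endoplasmic reticulum (BrM2 against Par -2.20, adjusted p = 0.015, held in 7 of 9). SLC7A11 is also a target of ATF4, the amino acid stress factor, and of 10 genes of that list 9 were tested. PHGDH, the first enzyme of serine synthesis, was at 6.88 ± 2.26 CPM in Par, 102 ± 60.7 in LM2 and 72.3 ± 25 in BrM2 cells, and rose by 3.89 (SE 0.49, adjusted p = 0.0015) and 3.40 (SE 0.48, adjusted p = 0.0019). PSAT1, which acts after it, rose in LM2 against Par cells by 1.30 (adjusted p = 0.0013) and was lower in BrM2 than in LM2 cells by a log2 difference of -0.79 (adjusted p = 0.015). The other 7 tested genes of that list were not called without the block. Among them was SLC3A2, which encodes the partner chain of SLC7A11 and was called against Par cells in both metastatic lines with the block. With the block, 4 of the 9 were called higher and 1 lower in LM2 against Par cells, beside 34.5% of all genes. In BrM2 against Par cells 4 were higher and 0 lower (42.7%), and in BrM2 against LM2 cells 1 was higher and 2 lower (37.5%). ASNS was not tested, with 5 to 30 counts per library, and 49.3% of its exon length overlaps another gene on the same strand. Of 8 other aldo-keto reductases, 7 had a row, 4 were tested and 0 were called by edgeR without the block, with 1 called lower in each comparison with it.

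Across the 9 libraries, the genes whose log2 CPM followed NQO1 most closely were TRIM14 (Pearson's r 0.986), NPTXR (0.979) and NUP214 (0.978). Those most like AKR1C3 were STRADB (0.985), HGSNAT (0.984) and SERPINB9 (0.983). Those most like AKR1C2 were HIP1 (0.978), CLIC6 (0.978) and SAYSD1 (0.977), and those most like AKR1C1 were RTN3 (0.961), C15orf48 (0.954) and CSF1R (0.947). These are descriptions picked from 13018 genes, and the libraries share the lines and the replicate numbers that set them apart.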

How the data were processed

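From stranded mRNA libraries read from both ends, the authors mapped reads to hg38 with STAR 2.7.0 and deposited raw counts per gene. The tool names come from the submitters' processing notes and the paper's methods, and the strand counted is not given in the sources used here. A deposited table that holds only the authors' DESeq2 comparisons was not used.

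The 58887 rows held 3 repeated identifiers, which were dropped. A filter after HTSFilter (threshold 47.15 on the largest normalized count) left 13018 genes. edgeR 4.0.16 (R 4.3.3, TMM, quasi-likelihood test, 2-sided) was fitted to all 9 libraries with the 3 lines as groups, with Benjamini-Hochberg adjustment and a threshold of 0.05. Correlations used log2 CPM with a prior count of 2. DESeq2 1.42.0, other size factors, no filter, left-out libraries and the replicate block were alternatives. The tests were tried on simulated data. The block treats same-numbered libraries as pairs, in libraries described only as different passages. Their deviations from the line means correlated between lines (r from 0.23 to 0.90 in all 9 pairs). Libraries of different numbers were not compared in this way. The shift of replicate 1 moves the deviations of replicates 2 and 3 together, so these values do not show that replicates 2 and 3 are paired. Replicates of a line differed by more than sampling noise, with a chi-square per degree of freedom of 18.2 to 329.

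The targets and the gene lists were chosen with earlier results of these data known. By rule the text names the 10 targets, 13 regulators, of each other list up to 3 called genes with the largest rise and fall in a comparison, and the 3 genes most like each called target. MANCR, LINC00705, FTH1, ASNS and SLC3A2 fall outside the rule and were picked once their values were known. The result of 1 gene list is not reported here. Positions and promoters are from RefSeq GRCh38.p14, the build the authors aligned to, matched by symbol. Exon length, overlap and shared sequence come from GENCODE annotation on another build, for which no positions are given.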

Additional observations from a re-analysis of the deposited data

Results flagged for a closer look

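The fitted differences of NQO1 from Par cells had opposite signs in the metastatic lines, 1.23 in LM2 cells and -0.38 (SE 0.34) in BrM2 cells on the log2 scale, although the BrM2 and Par libraries overlapped. The difference between the lines was tested directly and gave -1.62 (SE 0.35, adjusted p = 0.024 in edgeR's quasi-likelihood test) in BrM2 against LM2 cells, lower in 3 of 3 same-numbered pairs. Without the block neither difference from Par cells passed the threshold, and with it the LM2 difference did (adjusted p = 0.0015) and the BrM2 difference did not (adjusted p = 0.23). NQO1 was higher in replicate 1 than in replicates 2 and 3 by 0.63 on the log2 scale, and the difference between BrM2 and LM2 cells was widest in the pair of replicate 1, at -2.21.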

How the results depend on the processing

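In LM2 against Par cells the 2 called targets became 6 with the replicate block in edgeR, 6 with it in DESeq2 and 5 with it on replicates 2 and 3 only. In BrM2 against LM2 cells the 2 became 4 with the block in edgeR and 4 in DESeq2, and 3 with it on replicates 2 and 3 only, where HMOX1 and AKR1C1 were not called and TXNRD1 was. In BrM2 against Par cells the 3 became 4 with it. The blocked DESeq2 fit and the fit on replicates 2 and 3 were chosen after seeing the data. With libraries or replicate numbers left out, the counts ranged from 0 to 5 in LM2 against Par cells, from 1 to 4 in BrM2 against Par cells and from 0 to 3 in BrM2 against LM2 cells, and the median log2 fold change of the targets from -0.30 to -0.019, from -0.58 to -0.15 and from -0.63 to -0.045. Leaving out replicate 2 or replicate 3 in every line left 0, 1 and 0 targets called, and over all genes 70 or 135, 154 or 270 and 53 or 113. No setting reversed a called difference. Over all genes, the counts of 1129, 1723 and 1055 called became 4491, 5557 and 4887 with the block, and 1886 and 1817 in DESeq2 without it for LM2 against Par and BrM2 against LM2 cells. DESeq2 without the block also called NQO1 higher in LM2 than in Par cells (adjusted p = 0.01). SRXN1 could not be read from these counts, and AKR1C2 rests on 9 to 26 counts per library in the metastatic lines.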
